A study of Mus musculus with 6 samples.

Results

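The cholesterol synthesis pathway and the genes that sense, move and store sterols were examined in L929 cells with and without STING. L929 is a fibroblast line from mouse connective tissue. STING is an adaptor protein of the endoplasmic reticulum (ER) membrane that relays the signal of the DNA sensor cGAS. Poly(A) RNA was sequenced from 3 samples of STING KO cells (genotype label STING KO) and 3 samples of control cells (genotype label WT), and no treatment is named for either group. The labels do not say how the knockout was made or whether it is 1 clone, and they do not tell whether each replicate was grown as its own culture; the p-values below therefore speak of the scatter among these 6 libraries, which may be technical. The genes were taken by symbol from the deposited table: all 31 listed genes were found among its 27507 gene identifiers, and 30 of them passed the minimum of 10 normalized counts in at least 3 samples.

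Cells make cholesterol from acetyl-CoA through mevalonate, the isoprenoid diphosphates, squalene and lanosterol. The transcription factor SREBP2 drives the genes of these enzymes: while ER cholesterol is high its precursor is held in the ER membrane by Scap and the Insig proteins, and when it is low Scap carries it to the Golgi, where a pair of proteases releases the active factor. Oxysterols that accumulate with cholesterol activate the LXR nuclear receptors, which turn on sterol export. Enzyme mRNAs of this pathway therefore serve as a common readout of SREBP2 activity.

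Promoter sequence next to the start of 4 of the genes shows the elements through which SREBP2 is known to act, namely the sterol regulatory element, the CCAAT box bound by its partner NF-Y and the E-box that SREBPs also bind. Hmgcs1 is shown as the member with a match to the sterol regulatory element, Lss as an enzyme with a CCAAT box whose groups did not overlap, Mvk as the member with the highest fold change and Insig1 as a sensor with an E-box. The sequences are from RefSeq (GRCm38.p6, plus strand, 5′ to 3′, 150 bases each, ending before the annotated start), and capitals mark a match on either strand to TCACNCCAC, CCAAT or CACGTG. They lie at chr13:119690201-119690350 (Hmgcs1), chr10:76531438-76531587 (Lss), chr5:114444119-114444268 (Mvk) and chr5:28071213-28071362 (Insig1).
Hmgcs1: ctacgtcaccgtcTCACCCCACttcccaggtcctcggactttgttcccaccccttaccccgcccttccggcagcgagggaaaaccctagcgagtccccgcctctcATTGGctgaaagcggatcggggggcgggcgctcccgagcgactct
Lss: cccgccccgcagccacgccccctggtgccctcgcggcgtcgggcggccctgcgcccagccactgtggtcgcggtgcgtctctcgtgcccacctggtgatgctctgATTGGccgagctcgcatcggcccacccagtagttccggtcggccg
Mvk: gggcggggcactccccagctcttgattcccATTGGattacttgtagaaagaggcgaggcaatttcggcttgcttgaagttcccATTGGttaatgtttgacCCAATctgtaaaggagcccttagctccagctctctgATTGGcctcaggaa
Insig1: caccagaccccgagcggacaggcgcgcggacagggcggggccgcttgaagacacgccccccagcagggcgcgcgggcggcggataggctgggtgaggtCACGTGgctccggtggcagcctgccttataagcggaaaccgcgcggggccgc

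RefSeq promoter windows, 250 bases before to 50 after each start, were matched for 26 of the 31 genes (all but Fdps, Fdft1, Sqle, Stard4 and Abcg1). A CCAAT box stood in the windows of 19 of the 26 (73.1%), against 41.1% of 27025 genes in the promoter table and 43.5% of the 9839 with a promoter among the tested genes. The E-box CACGTG stood in 6 of the 26 (Hsd17b7, Sc5d, Dhcr7, Scap, Insig1 and Abca1; 23.1%), against 8.09% of all genes and 11.7% of the tested ones. The element TCACNCCAC stood in 1 (Hmgcs1), against 1.44% of all genes and of the tested ones, and the direct repeat bound by LXR in 0, against 0.0962% of all genes and 0.0711% of the tested ones. These are letter matches on both strands and no binding was measured.

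The target gene first checks the labels. Sting1 (Tmem173 in the table) was at 82.1, 80.6 and 93.4 normalized counts in STING KO replicates 1 to 3, against 329, 313 and 311 in control replicates 1 to 3. All STING KO libraries lay below all control libraries, at 26.9% of the control mean (log2 fold change -1.90, SE 0.09, limma adjusted p = 9.72e-06). Total normalized counts were 14382072 to 14526606 per library. Of the 11 fibroblast markers 9 were above 0 in every library, with Vim, the intermediate filament vimentin, at 86468 to 103473 in STING KO and 79614 to 90281 in control. The matrix proteoglycan genes Dcn, at 0 in STING KO replicate 3, and Lum, at 0 in 3 libraries, were highest in STING KO replicate 1 and control replicate 3, with Lum at 11.9 in that STING KO library and at 31.8 in that control library. The same pair of libraries stood apart in transcripts of hepatocytes, liver cells with an active cholesterol metabolism: the 18 marker genes, all above 0 in every library, summed to 5834, 781 and 341 normalized counts in STING KO replicates 1 to 3, against 729.8, 287 and 6195 in control replicates 1 to 3. Alb, the albumin gene, made up 2552, 268 and 113 of these in STING KO and 243, 101 and 2780 in control.

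The mRNAs of cholesterol synthesis and of its SREBP2 control had STING KO means of 88.0% to 107% of control in 28 of the 30 tested genes, all but Idi1 (69.5%) and Abca1 (64.4%). Of the 30 tested genes, limma called 0 lower and 0 higher, where it called 0.258% (32 of 12408) of all tested genes lower and 0% higher. At an unadjusted limma p at or under 0.05, Idi1 and Abca1 were lower (6.67%) and no gene of the group was higher, against backgrounds of 3.18% and 3.2%. limma-voom also called 0 of them. In the authors' deposited table all 30 have an adjusted p of 1, with log2 fold changes of -0.64 to 0.09; that table calls 0.251% of its genes lower and 0.043% higher. Exons of 9 of the 31 genes overlap another annotated gene, in 6 of them on the opposite strand (Cyp51, Fdft1, Hmgcs1, Idi1, Lss and Scap), and with the strand setting unknown their counts may hold reads of the other gene.

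The intervals put limits on the size of any difference. For 24 of the 30 genes the 95% interval of the fold change, not adjusted over genes, lay within 1.25-fold in both directions (80%, against 61.5% of all tested genes). For 28 it lay within 1.5-fold, against 85.4%. These shares were not taken among genes of like level, so they do not tell whether the cholesterol genes were steadier than others. The 6 genes with wider intervals were Idi1, Fdps, Tm7sf2, Hsd17b7, Mbtps2 and Abca1, and beyond 1.5-fold lay those of Idi1 and Abca1 alone. The log2 fold change was negative in 21 of the 30 genes, against 50.8% of all tested genes, at a median of -0.02, against 0.00 for all. The samples are bulk RNA, so fewer cells with a transcript and less of it per cell cannot be told apart.

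**Figure D1:**
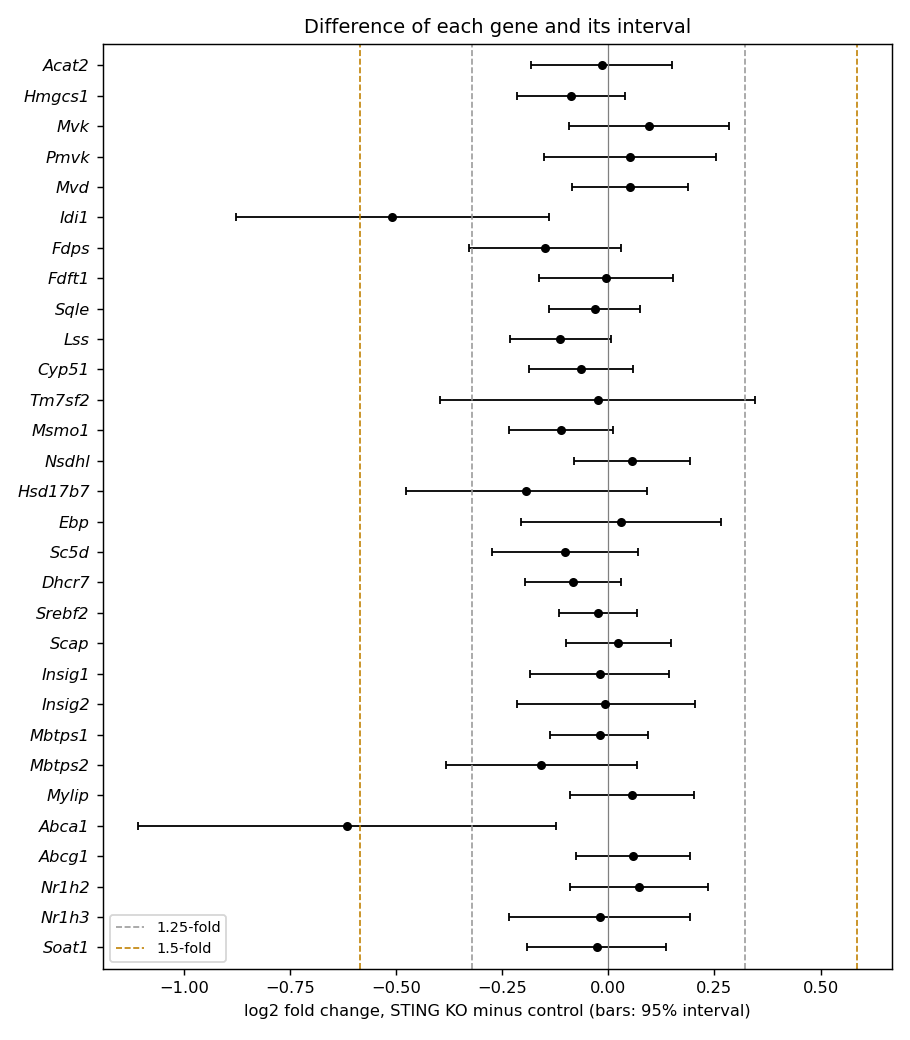
Log2 fold change of STING KO minus control for the 30 tested genes in pathway order (points, limma on log2(normalized count + 0.1)) with 95% intervals (bars); dashed lines stand at 1.25-fold and 1.5-fold. The intervals of 28 genes lie within the outer lines, and those of Idi1 and Abca1 reach past them on the negative side.

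The first steps, from acetyl-CoA to mevalonate and its phosphates, had means of 94.2% to 107% of control. Hmgcs1, the cytosolic HMG-CoA synthase (chr13:119690379-119708260, plus strand, GRCm38), was at 3339, 3661 and 3251 normalized counts in STING KO replicates 1 to 3, against 3613, 3518 and 3751 in control. STING KO replicate 2 lay inside the control range and the other STING KO libraries below it (log2 fold change -0.09, SE 0.06, limma adjusted p = 0.739). Acat2, the thiolase that joins acetyl-CoA units, was at 947, 918 and 1095 in STING KO and 970.4, 1036 and 978.5 in control (log2 fold change -0.02, SE 0.07).

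The kinases and the decarboxylase that follow stood at or slightly above control. Mvk, mevalonate kinase, was at 1258, 1212 and 1406 in STING KO, against 1168, 1353 and 1113 in control, with overlapping groups and the highest fold change of the group (0.10, SE 0.08, adjusted p = 0.76). Pmvk, phosphomevalonate kinase, averaged 1354 ± 166 normalized counts in STING KO and 1303 ± 101 in control. Mvd, the decarboxylase that yields isopentenyl diphosphate, averaged 788 ± 30.4 in STING KO and 760.3 ± 31.3 in control (SD, n = 3 each). All 3 genes had positive fold changes, of 0.05 to 0.10 on the log2 scale, that were not called.

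Idi1 and Fdps make the isoprenoid diphosphates, and Idi1 had the lowest mean relative to control among the enzymes. Idi1, isopentenyl diphosphate isomerase (chr13:8885501-8892451, plus strand, GRCm38), was at 118.8, 126.4 and 98.4 normalized counts in STING KO, against 180.7, 125.7 and 187.8 in control. Control replicate 2 lay within the STING KO range, and the other control libraries above it. The means were 114.5 ± 14.5 in STING KO and 165 ± 34 in control (SD, n = 3 each), 69.5% of control (log2 fold change -0.51, SE 0.16, unadjusted p = 0.0119, limma adjusted p = 0.717). Over the fits that left out 1 library the log2 fold change was -0.69 to -0.40, and the smallest adjusted p, 0.13, came without control replicate 2.

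Fdps, farnesyl diphosphate synthase (chr3:89093588-89101959, minus strand), was at 219.7, 248.9 and 224.9 in STING KO, against 260.6, 249.4 and 258.3 in control. The groups did not overlap, but STING KO replicate 2 and control replicate 2 were within 1 count of each other (log2 fold change -0.15, SE 0.08, adjusted p = 0.738). Exons of Fdps share 1124 bases with another annotated gene on the same strand, so its counts are uncertain.

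The genes of squalene and lanosterol formation had means of 92.4% to 99.6% of control. Fdft1, squalene synthase, averaged 925 ± 56.5 in STING KO and 928 ± 62.5 in control, and Sqle, the squalene epoxidase that is a rate-controlling step, averaged 3284 ± 114 in STING KO and 3358 ± 81.3 in control (SD, n = 3 each). For Sqle the 95% interval of the fold change was 0.908 to 1.05. Lss, lanosterol synthase (chr10:76531588-76557138, plus strand), was at 1620, 1638 and 1579 in STING KO, against 1798, 1658 and 1778 in control. All STING KO libraries of Lss lay below all control libraries, with control replicate 2 the nearest (92.4% of control, log2 fold change -0.11, SE 0.05, adjusted p = 0.738).

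From lanosterol to cholesterol, the enzymes stood at 92.7% to 104% of control, except Hsd17b7. Cyp51, the lanosterol 14-demethylase, was at 4982, 5258 and 4618 in STING KO, against 5251, 5062 and 5207 in control, and Msmo1, the C4-methyl oxidase that acts after it, at 2327, 2527 and 2285 in STING KO, against 2648, 2491 and 2565 in control. In both genes STING KO replicate 2 reached into or above the control range and STING KO replicate 3 was the lowest library. Nsdhl, the C4 decarboxylating dehydrogenase, averaged 773.3 ± 14.6 in STING KO and 745 ± 40.7 in control, and Hsd17b7, the following ketoreductase, 778 ± 138 in STING KO and 884 ± 93.2 in control (SD, n = 3 each). Hsd17b7 was at 88.0% of control, with STING KO replicate 3 at 628 and the other libraries at 782 to 965.

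The last steps included Dhcr7, another enzyme whose groups did not overlap. Dhcr7, the 7-dehydrocholesterol reductase (chr7:143823145-143848410, plus strand), was at 1014, 1005 and 1029 in STING KO, against 1065, 1095 and 1069 in control. The libraries of each group lay close together, and the STING KO mean was 94.4% of control (log2 fold change -0.08, SE 0.05, adjusted p = 0.738). Ebp, the sterol isomerase, averaged 817 ± 105 in STING KO and 799 ± 85.2 in control, and Sc5d, the C5-desaturase, 1179 ± 104 in STING KO and 1264 ± 80.7 in control (SD, n = 3 each). Tm7sf2, a C14-reductase, was among the lowest enzymes, at 65.3, 96.6 and 96.4 in STING KO and 91.9, 79.8 and 87.4 in control, and its interval of 0.76 to 1.27 was one of the widest.

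**Figure D2:**
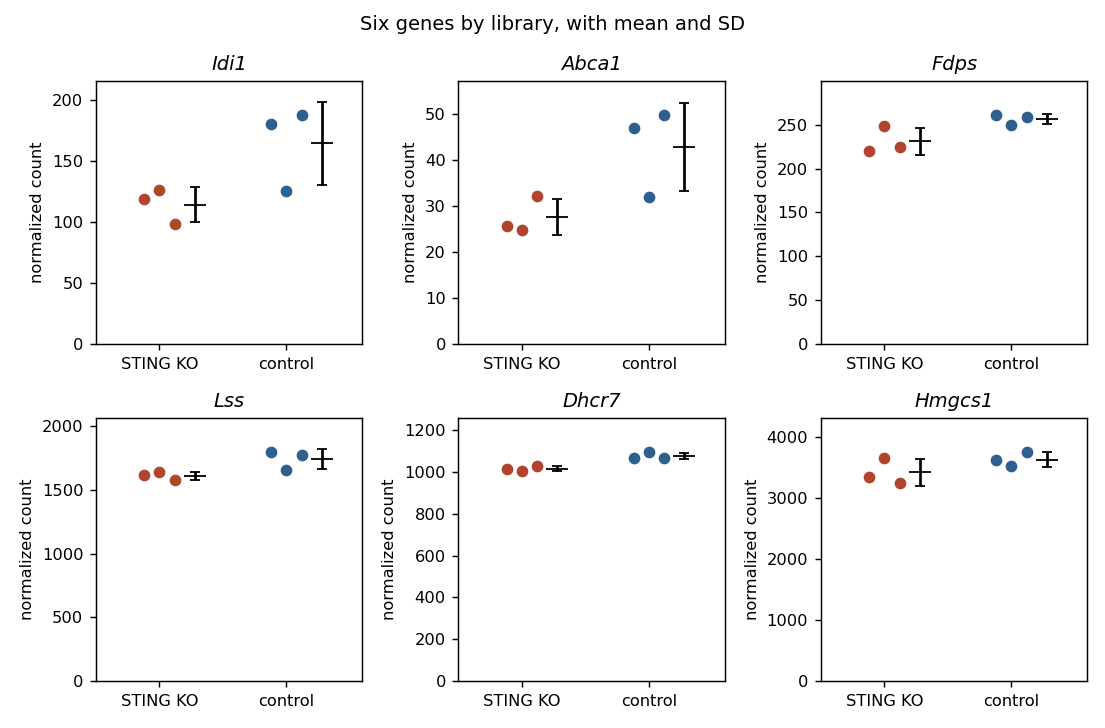
Normalized counts of Idi1, Abca1, Fdps, Lss, Dhcr7 and Hmgcs1 in each library (points), STING KO left of control, with the group mean and SD (black, n = 3). STING KO and control do not overlap in Fdps, Lss and Dhcr7, while in Idi1 and Abca1 control replicate 2 lies at the STING KO level.

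Read as a group, the 18 enzymes were all tested, with 0 called, 13 negative and 5 positive fold changes. The median log2 fold change was -0.05, with -0.07, -0.02 and -0.07 in STING KO replicates 1 to 3 and 0.03, -0.03 and -0.01 in control replicates 1 to 3, relative to the control mean. STING KO replicate 2 lay within the control range. The enzymes' normalized counts summed to 25769, 26636 and 25550 in STING KO, against 27238, 26792 and 26807 in control, which is 96.4% of the control mean (25985 ± 575 in STING KO and 26946 ± 253 in control, SD, n = 3 each). The sums did not overlap, but STING KO replicate 2 (26636) and control replicate 2 (26792) lay close together. They are carried mostly by Cyp51, Hmgcs1, Sqle and Msmo1, each of which had overlapping groups. The sums were chosen after the values were seen, and no share over other gene sets was computed. Groups that do not overlap, with STING KO lower, were found in 3 of the 30 tested genes (Fdps, Lss and Dhcr7), where 6.32% of all tested genes had this, and with STING KO higher in 0, against 5.76%.

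Of the 6 sensing and processing genes 0 were called, at a median log2 fold change of -0.02, with groups that overlapped in each. Srebf2, the gene of SREBP2 itself (chr15:82147181-82205379, plus strand), was at 6351, 6227 and 6312 normalized counts in STING KO, against 6370, 6509 and 6340 in control. The groups overlapped narrowly and the 95% interval of the fold change was 0.922 to 1.05. Scap, the sterol-sensing escort, averaged 1464 ± 57.5 in STING KO and 1441 ± 50.4 in control (SD, n = 3 each).

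The Insig genes encode the ER anchors, of which Insig1 is itself an SREBP target. Insig1 was at 1694, 1900 and 1663 in STING KO, against 1884, 1631 and 1819 in control (log2 fold change -0.02, SE 0.07). Insig2 was at 706.7, 798.5 and 620.6 in STING KO, against 687.9, 677.3 and 762 in control (log2 fold change -0.01, SE 0.09). In each gene the STING KO libraries spanned most or all of the control range. The protease genes Mbtps1 and Mbtps2, whose products cut SREBP2 in the Golgi, were at 98.6% and 90.0% of control, with means of 588 ± 77.1 in STING KO and 654 ± 51 in control for Mbtps2 (SD, n = 3 each). Exons of Mbtps2 share 2867 bases with Yy2, so reads of these genes may be mixed.

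Among the genes of sterol export, Abca1 had the lowest fold change of all 30 and a low level. Abca1, which loads cellular cholesterol onto apolipoprotein A-I (chr4:53030787-53159895, minus strand), was at 25.7, 24.9 and 32.1 normalized counts in STING KO, against 46.9, 31.9 and 49.7 in control. STING KO replicate 3 and control replicate 2 were at the same level, and the other control libraries lay above every STING KO library. The mean was 64.4% of control (log2 fold change -0.62, SE 0.22, unadjusted p = 0.0194, limma adjusted p = 0.738), with an interval of 0.464 to 0.918. Leaving out single libraries gave -0.81 (without control replicate 2) to -0.50, with no call in any of these fits.

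Abcg1 and Mylip, also LXR targets, did not share that negative sign, though neither was called. Abcg1, the exporter to mature lipoproteins, was at 766.1, 769.6 and 704.9 in STING KO, against 706.9, 725.2 and 718.3 in control, and Mylip, a ubiquitin ligase that sends lipoprotein receptors to degradation, at 636, 691 and 608.5 in STING KO, against 614, 627 and 618 in control. Both had log2 fold changes of 0.06 with overlapping groups. The LXR genes Nr1h2 and Nr1h3 averaged 1401 ± 134 and 504.7 ± 36 in STING KO, against 1330 ± 50.4 and 514 ± 62.7 in control (SD, n = 3 each).

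Soat1, which esterifies cholesterol for storage, averaged 1073 ± 56 in STING KO and 1096 ± 93.1 in control. Stard4, a cytosolic sterol carrier, was the 1 gene not tested: it was at 1.98, 0 and 0 normalized counts in STING KO and at 2.995, 1.995 and 1.987 in control. These are at most 3 reads a library, and no fold is given.

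**Figure D3:**
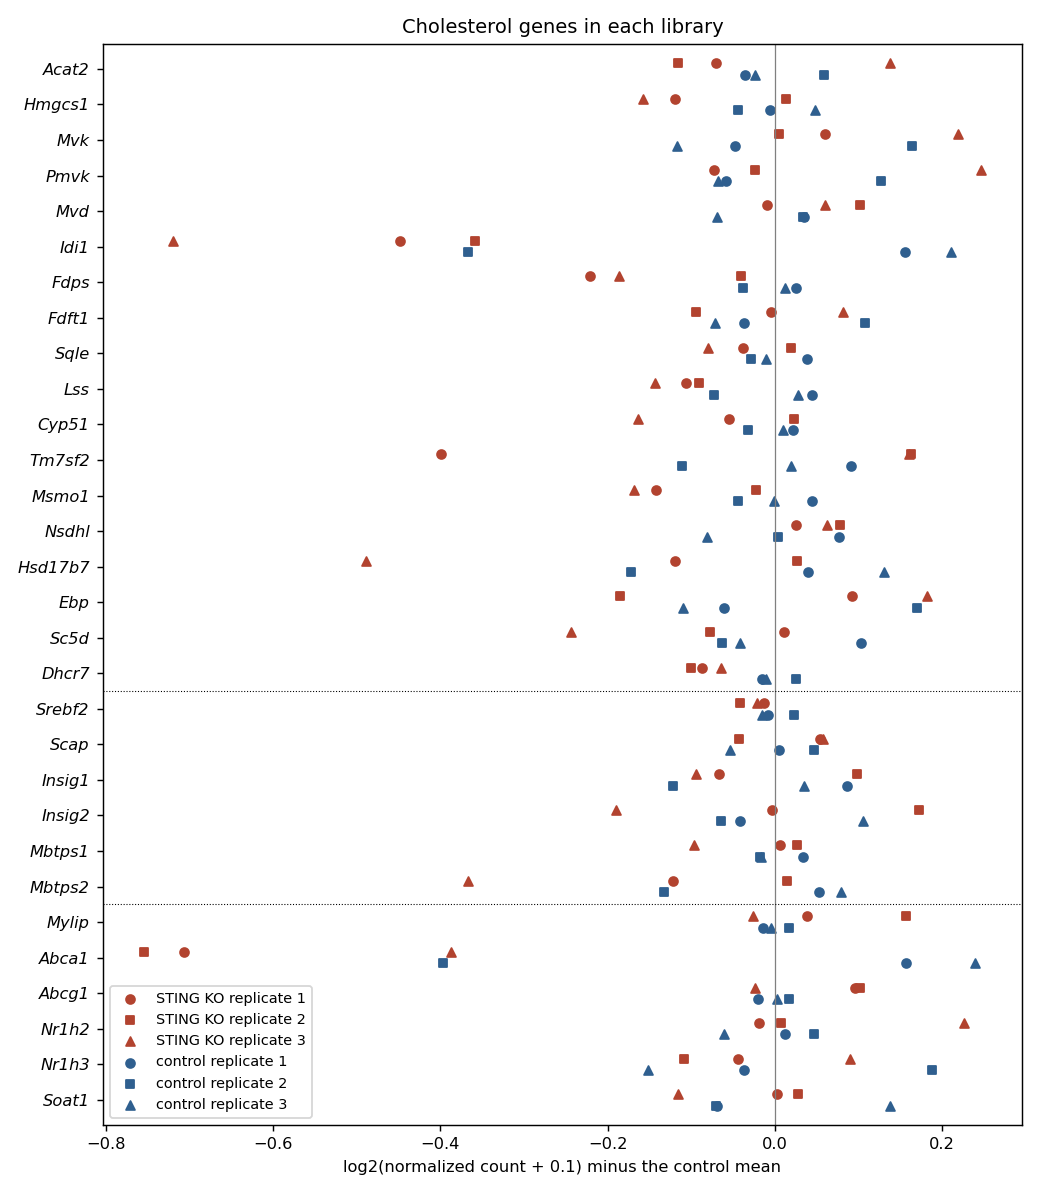
Log2(normalized count + 0.1) minus the control mean for the 30 tested genes (rows, in pathway order; dotted lines separate synthesis, sensing and transport), with STING KO (red) drawn above control (blue) and the replicate shown by the symbol. Most points lie within 0.2 of 0, and the points farthest on the negative side are STING KO libraries of Abca1 and Idi1.

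Levels per length of exon spread over a wide range and kept nearly the same order in both groups. In normalized counts per kb of exons, Cyp51 was at 1260 in STING KO and 1320 in control, Srebf2 at 1240 in STING KO and 1260 in control, Sqle at 1190 in STING KO and 1220 in control, Msmo1 at 1160 in STING KO and 1260 in control and Hmgcs1 at 981 in STING KO and 1040 in control. These were the 5 highest of the 30. At the low end, Mbtps2 stood at 74 in STING KO and 82.3 in control, Tm7sf2 at 50.8 in STING KO and 51 in control, Idi1 at 37.8 in STING KO and 54.4 in control and Abca1 at 2.69 in STING KO and 4.17 in control. The coefficient of variation had a median of 6.62% in STING KO and 4.9% in control, with the highest values for Tm7sf2 in STING KO (20.9%) and Abca1 in control (22.3%).

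**Figure D4:**
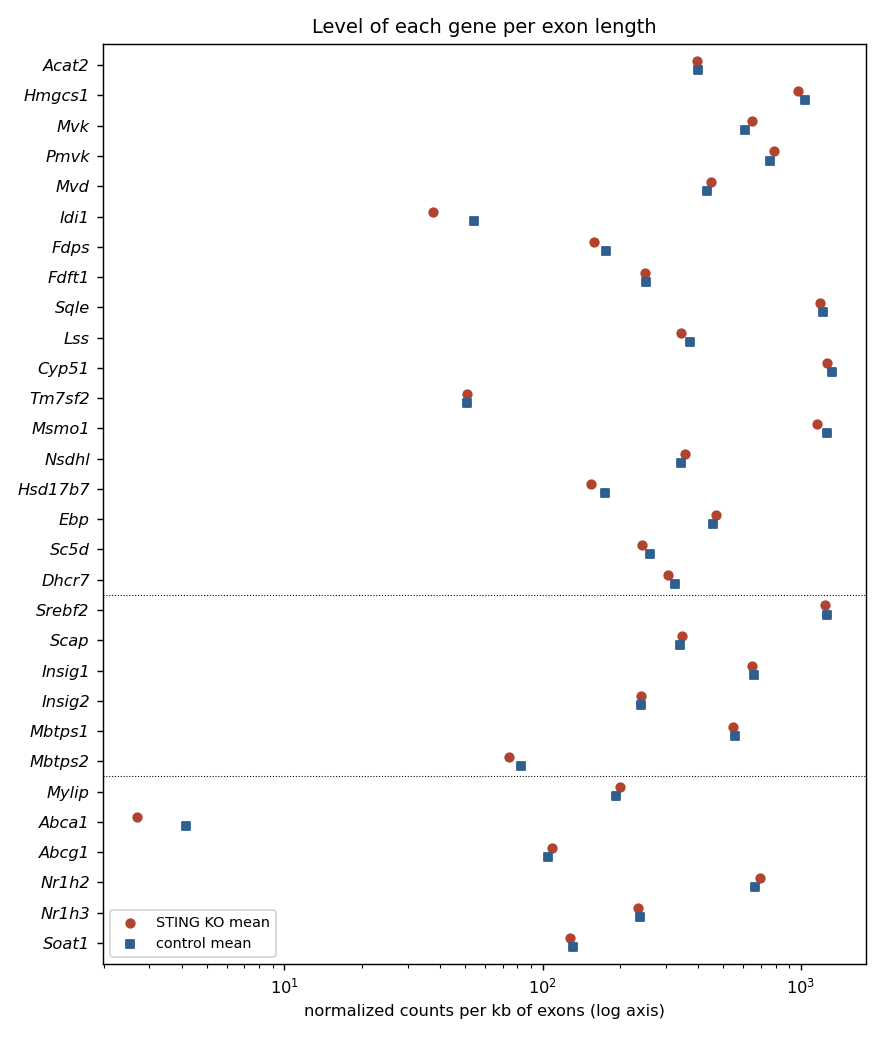
Mean normalized counts per kb of annotated exons for the 30 tested genes on a log axis, STING KO (circles) above control (squares). The pair of points nearly coincides for most genes, and is widest apart for Idi1 (37.8 in STING KO and 54.4 in control) and Abca1 (2.69 in STING KO and 4.17 in control).

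Libraries of the same group also differed among themselves. The first principal component of all tested genes (40.3% of the variance) had STING KO replicate 3 (21.1) and control replicate 2 (15.2) at one end and STING KO replicate 1 (-12.1) and control replicate 3 (-21.7) at the other. In 13 of the 30 genes STING KO replicate 3 and control replicate 2 were the lowest of their groups, against 27.7% of all tested genes. These were Hmgcs1, Idi1, Sqle, Lss, Cyp51, Msmo1, Hsd17b7, Sc5d, Insig1, Insig2, Mbtps1, Mbtps2 and Soat1. In 9 genes the same libraries were the highest, against 26.6%: Acat2, Mvk, Pmvk, Fdft1, Ebp, Dhcr7, Scap, Nr1h2 and Nr1h3.

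The same sets differ in transcript length, as do all genes of these patterns. The median exon length was 3931 bases for the 13 genes and 2149 for the 9, against 4980 and 2141 for all tested genes with the corresponding patterns. The sets were chosen by which libraries were extreme, so their medians in STING KO replicate 3 and control replicate 2 restate that choice and are given as a description. In the 13 genes the median deviation from the control mean was -0.07, 0.02 and -0.16 in STING KO replicates 1 to 3 and 0.04, -0.06 and 0.04 in control replicates 1 to 3 (log2). In the 9 it was -0.02, -0.10 and 0.14 in STING KO and -0.04, 0.11 and -0.07 in control. The part of this pattern in the fold changes was not tested.

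**Figure D5:**
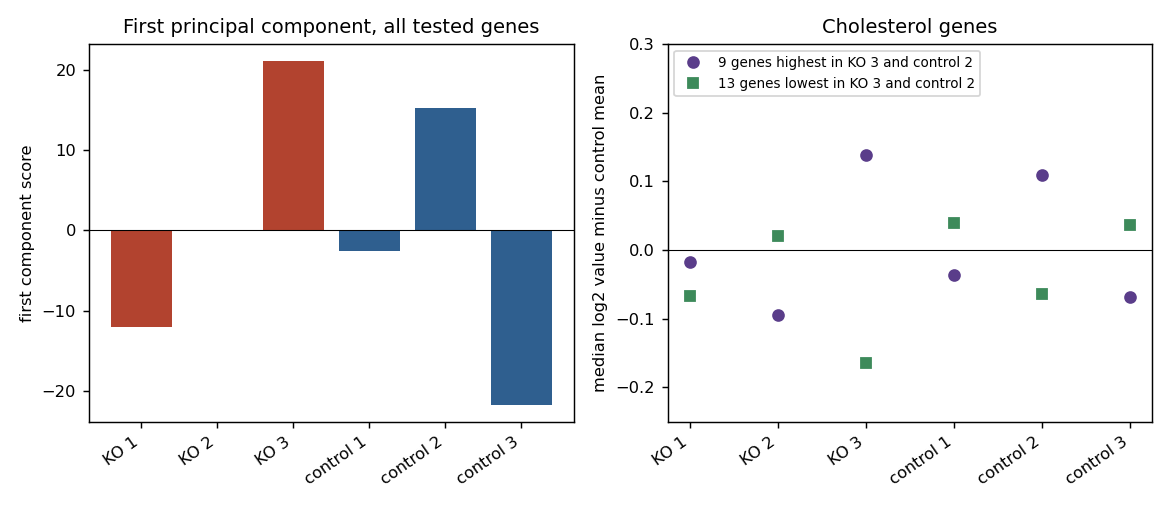
Left, score of each library on the first principal component of all tested genes; right, median log2 deviation from the control mean for the 9 genes highest and the 13 genes lowest in STING KO replicate 3 and control replicate 2. These libraries have the highest scores (21.1 and 15.2) and the sets were chosen by their order in these libraries, which fixes that their medians lie apart there.

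STING KO replicate 1 and control replicate 3, the libraries with the most hepatocyte transcripts, were the highest of their groups in 0 of the 30 genes, against 8.77% of all tested genes. In 4 genes (Pmvk, Mvd, Nsdhl and Nr1h2) these libraries were the lowest of their groups, against 9.32%. Without this pair of libraries the median of the enzymes was -0.05, Idi1 was at -0.43 and Abca1 at -0.45 (log2 fold changes, 2 samples a group, limma adjusted p = 1 for both).

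The wider sterol and isoprenoid network also held no called gene. Of 73 further genes found, 70 were tested, and limma called 0 lower and 0 higher, against 0.258% and 0% of all tested genes. At shares this low, 0 called in a list of this size or smaller says little about it. At an unadjusted p at or under 0.05, 0 were lower and 0 higher, against 3.18% and 3.2%. The median log2 fold change of the 70 was -0.02. The isoprenoid branch, which prenylates proteins and builds dolichol and ubiquinone, had 0 of 13 called, from Pdss1 (-0.12), a subunit of the ubiquinone side-chain synthase, to Fnta (0.11), the farnesyltransferase alpha subunit. The partners that degrade or carry the sterol sensors had 0 of 15 called, from Erlin1 (-0.16), an ER scaffold, to Ubxn1 (0.09). Electron donors and further SREBP2 targets had 0 of 12 called, from Acly (-0.08), ATP citrate lyase, to Acss2 (0.29), acetyl-CoA synthetase, at 117, 129 and 133 normalized counts in STING KO and 124, 108 and 82.5 in control.

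The genes under the related factor SREBP1 had 0 of 10 called. Srebf1 itself was at 4109, 4180 and 4190 normalized counts in STING KO, against 4016, 3956 and 3811 in control. Its groups did not overlap (log2 fold change 0.08, SE 0.04, adjusted p = 0.738), and Gpam, which starts glycerolipid synthesis, had the lowest fold change of that list (-0.19, SE 0.09). Lipoprotein receptors and sterol transfer genes had 0 of 14 tested members called, from Cyp27a1 (-0.46, SE 0.44) to Gramd1c (0.36, SE 0.27), both under 40 normalized counts in every library. The list of further LXR targets had 0 of 6 tested members called. It also holds Nr1h5 (0.14), which encodes a related nuclear receptor and is not itself known as an LXR target. The other members ran from Lpl (-0.07), lipoprotein lipase, to Pltp (0.10), the phospholipid transfer protein. Of the 6 tested members, 3 had negative and 3 positive fold changes. In 2 of the 6, both lower in STING KO, the groups did not overlap, against 6.32% of all tested genes.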

How the data were processed

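RNA-seq of 6 samples (3 STING KO, 3 control, grouped by title) was analysed from 1 table. Its sample columns hold a signal, here called normalized count: the authors deposited gene counts scaled by 1 size factor a library. This was read from the values: 100% of those above 0 in each deposited column are whole multiples, within 0.01, of 1 step (0.99 to 1.00). Per the file headers, the authors also deposited a log2 fold change with its standard error, a Wald score, and p-values. Per the submitters' processing notes, which give no roles, HISAT2 2.0.4, Bowtie2 2.2.5, RSEM 1.2.12, DESeq2 1.4.5, GRCm38 and mm10 were used; for annotation and strand setting, the sources used here give nothing. Of 27821 rows, 314 repeat an identifier, and the first row of each was kept.

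limma 3.58.1 (R 4.3.3) with a mean-variance trend was fitted to log2(value + 0.1) of all 12408 genes with at least 10 in at least 3 samples, with no covariate, and adjusted over all of them (Benjamini-Hochberg, 0.05). Fold changes on this scale understate those of low genes. The fit was tested on simulated data. Coordinates and exon lengths (protein-coding transcripts merged) are from GENCODE M21, GRCm38. Libraries of a group differed by more than counting noise (chi-square per degree of freedom 2.41 to 10.6). Members, lists, tests and alternatives were chosen with earlier results of these data known. Every member is named, and of each other list the called genes and those with the highest and lowest fold change, Sting1, and the most abundant hepatocyte and fibroblast marker; Dcn, Lum and Pltp were chosen after their values were seen, as were the library patterns, enzyme sums and printed promoters.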

Additional observations from a re-analysis of the deposited data

How the results depend on the processing

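Under 15 alternatives (scaling, pseudocount, filters, limma-voom, the authors' deposited test, a replicate block, leaving out each library or the pair with hepatocyte transcripts), 0 of the 449 values of the 30 tested genes were called. The smallest adjusted p was 0.13 (Idi1 without control replicate 2). Of these values 33, in 12 genes, had the other sign, all uncalled. The median log2 fold change of the enzymes was -0.092 to -0.043 when 1 library was left out, lowest without STING KO replicate 2, and -0.028 under upper-quartile scaling. Over all genes, leaving out 1 library gave 21 to 35 lower genes (fewest without control replicate 1) and 0 to 2 higher ones (2 without control replicate 2). The authors' test gave 6 higher genes, and leaving out the pair with hepatocyte transcripts gave 13 lower ones; the cause was not tested. The labels do not say whether replicate numbers pair the samples. Deviations of same-numbered libraries from their group means had correlations of -0.183, -0.18 and -0.488, which cannot tell how the samples were handled. With the replicate block 18 genes were lower and 0 of the cholesterol genes were called. With 3 samples a group, small differences were not detectable. The intervals are not adjusted over genes, so a call needed a larger difference than one whose interval just excludes no change. Those of Idi1 and Abca1 lay below no change, yet neither gene was called.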
